A study of Mus musculus with 10 samples.

Results

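Antioxidant defence was followed through 10 genes, out of 19938 genes measured in mouse hippocampus: the 3 superoxide dismutases Sod1, Sod2 and Sod3, the peroxide-removing enzymes Cat, Gpx1 and Gpx4, the inducible enzymes Hmox1 and Nqo1, and the opposing regulators Bach1 and Nfe2l2. They were chosen by function, and their values were not part of the rule. Earlier results of these data were known when the choice was made. Sod1 and Bach1 lie on Mmu16 inside a segment carried in 3 copies by the trisomic mice, and the other 8 genes lie elsewhere in the genome and stay in 2 copies. All 10 were measured. Each is represented by the brightest probe set that names that gene alone, and a value is the RMA log2 intensity of that probe set, so that a log2 difference of 0.58 would correspond to the 1.5-fold ratio of gene copies.

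RNA came from the whole hippocampus, right and left, of 16-week-old male mice, with 1 Affymetrix Mouse Gene 1.0 ST array per mouse. The 5 trisomic mice were Dp5/Dp1, compound animals that carry the duplications Dp5Yah and Dp1Rhr, and the 5 controls were wild-type littermates of the same breeding, on a background labelled C57BL/6N. The methods of the study name C57BL/6J for the duplication lines instead. These control mice were shared with the lines that carry either duplication alone, and those lines were not used here. Dp5Yah was made by recombination between loxP sites placed in App and Runx1, and both duplications are present in every cell of the animal from conception, so neither an adult effect nor a single cell type is isolated. Sample titles of the trisomic mice name Dp5Yah and give the compound model in brackets, and both segments were therefore checked. Over the brighter genes of the Dp5Yah interval the mean level was 9.04 to 9.20 in the controls and 9.44 to 9.52 in the Dp5/Dp1 arrays, and over those of the Dp1Rhr interval it was 9.21 to 9.27 and 9.47 to 9.54, so that every trisomic array stood above every control for both.

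Superoxide dismutases turn superoxide into hydrogen peroxide: SOD1 in the cytosol, with copper and zinc, SOD2 in mitochondria, with manganese, and SOD3 outside the cell. Catalase and the glutathione peroxidases then remove peroxides, and GPX4 acts on lipid peroxides in membranes. NRF2, encoded by Nfe2l2, pairs with small MAF proteins at antioxidant response elements and switches on genes such as Nqo1, a quinone reductase, and Hmox1, which degrades haem, while BACH1 occupies the same class of element as a haem-sensitive repressor. SOD1 and BACH1 are encoded on Hsa21, and their place in Down syndrome has long been discussed as a matter of gene dosage and redox balance.

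The promoters of the duplicated pair are shown because both genes rose in these mice, and because the element through which NRF2 and BACH1 act can be looked for in them. The RefSeq sequences (GRCm38.p6) cover 250 bases before and 50 after each annotated start, and only the bases before the start are printed, 5′ to 3′ on the gene's strand. For Sod1 the stretch is chr16:90220512-90220761 and for Bach1 it is chr16:87698704-87698953, both on the plus strand. Capitals mark a match to the core TGACNNNGC, read on either strand:
Sod1: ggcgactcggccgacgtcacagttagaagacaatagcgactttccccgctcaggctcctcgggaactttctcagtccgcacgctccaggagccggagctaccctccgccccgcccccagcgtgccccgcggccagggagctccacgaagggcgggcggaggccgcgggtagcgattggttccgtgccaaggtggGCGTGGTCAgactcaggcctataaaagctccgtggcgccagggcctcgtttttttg
Bach1: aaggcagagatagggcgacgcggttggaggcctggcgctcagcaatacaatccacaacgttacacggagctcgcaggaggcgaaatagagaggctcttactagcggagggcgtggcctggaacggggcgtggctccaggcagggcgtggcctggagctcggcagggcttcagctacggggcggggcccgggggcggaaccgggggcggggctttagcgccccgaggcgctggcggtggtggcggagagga
The Sod1 match lies on the reverse strand, 56 bases before the start, and the Bach1 window held none. Nfe2l2, on the minus strand, held a match 240 bases before its start. The site of Nfe2l2 (chr2:75704885-75704913) is set beside those of Gclm (chr3:122245413-122245441) and Prdx1 (chr4:116685456-116685484), which are genes of the NRF2 response:
Nfe2l2: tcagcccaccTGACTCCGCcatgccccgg
Gclm: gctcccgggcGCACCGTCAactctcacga
Prdx1: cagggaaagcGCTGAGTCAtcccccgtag
Some genes have several annotated starts and so several windows. Counted by gene, with a match in any of its windows, 2 of 8 members and 9 of 18 listed NRF2 and BACH1 targets, Nqo1 being in both sets, held the core, against 14% of 27025 genes. Counted by window, 2 of 11 windows of the members and 10 of 26 of the targets held it, against 12.4% of 32851. No window was available for Sod3 and Hmox1, so neither was searched. The related core TGAGTCA can overlap the first core in one stretch, as it does in Prdx1. It occurred in 5.2% of all windows, in 0 of the 11 windows of the members and in 4 of the 26 of the targets. Such matches are letters in a window and were not tested for binding.

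Arrays differed in tissue other than hippocampus, and these values stand beside every result below. Averaged over 10 of 12 choroid plexus markers, the mean level reached 8.33 to 8.97 on controls 1, 4 and 5 and 8.31 and 8.57 on Dp5/Dp1 3 and 5, against 6.98 to 7.37 on the other arrays. All 10 measured markers had the lower mean in Dp5/Dp1, by 0.38 in the mean over markers (exact two-sided permutation p = 0.444). The 10 medial habenula markers stood at 8.15 on Dp5/Dp1 2 and 7.70 on Dp5/Dp1 5, against 6.92 to 7.39 elsewhere, and 9 of 10 had the higher mean in Dp5/Dp1. Neuronal markers, which define the tissue, were high on every array (11.84 to 11.91). Astrocyte markers ranged from 10.72 to 10.88 in controls and from 10.67 to 10.78 in Dp5/Dp1, with 7 of 10 lower, and oligodendrocyte and microglial ranges overlapped between groups. Endothelial markers ranged from 8.87 to 9.07 in controls and from 8.97 to 9.09 in Dp5/Dp1, with 4 of 9 higher at an unadjusted p under 0.05 and 0 called in limma. At that unadjusted level 3.39% of all genes lay higher. Of the red blood cell markers 3 of 12 were measured, with 6.53 to 6.70 in controls and 6.58 to 6.89 in Dp5/Dp1. In whole tissue, fewer cells of a type and less RNA per cell cannot be told apart.

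Sod1 and Bach1 were overexpressed in the Dp5/Dp1 hippocampus and none of the other 8 members passed the test. Sod1 rose 1.22-fold and Bach1 1.20-fold, each with every trisomic array above every control. The 8 members in 2 copies differed by between -0.02 and 0.07 on the log2 scale. Thus 2 of 10 members were called higher and 0 lower with limma at an adjusted p under 0.05, where 0.206% of all genes were called in either direction and 0.201% were called higher. The 2 called members are those in 3 copies, and calls were common in the duplications, at 25 of 82 genes of the Dp5Yah interval and 12 of 31 of the Dp1Rhr interval. Outside the duplications 3 of 19825 genes were called higher and 1 lower, and 0 of the 8 members there. At an unadjusted p under 0.05 the members again numbered 2 higher, where 3.39% of all genes lay higher and 2.67% lower, and under FCROS, the rank-based method of the study, rewritten for these arrays, the calls among the members were again Sod1 and Bach1, where 5.06% of genes were called.

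**Figure D1:**
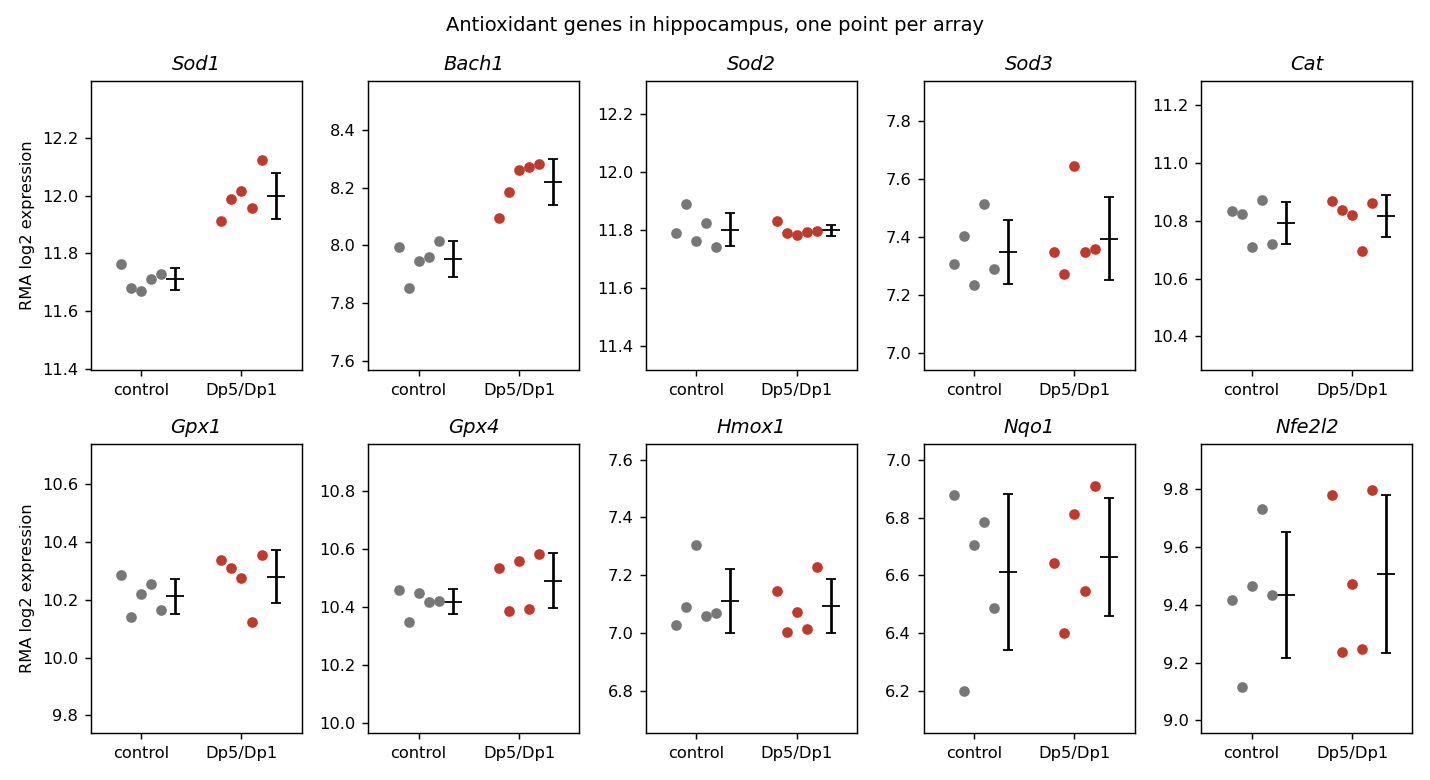
RMA log2 expression of the 10 members in each of 5 control (grey) and 5 Dp5/Dp1 (red) arrays, in replicate order, with black marks for the mean and bars for 1 SD; every panel spans 1 log2 unit. Sod1 and Bach1 have no overlap between groups, and the other 8 genes do, with wide scatter for Nqo1 and Nfe2l2.

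Sod1 (Mmu16, 90220762 to 90226333 in GRCm38), the cytosolic dismutase, was among the brightest genes of the tissue, at the 98.1 percentile of mean level. Controls 1 to 5 read 11.77, 11.68, 11.67, 11.71 and 11.73, and Dp5/Dp1 1 to 5 read 11.91, 11.99, 12.02, 11.96 and 12.12. The groups did not overlap, with Dp5/Dp1 1 the lowest trisomic array. The mean went from 11.71 ± 0.04 to 12.00 ± 0.08 (SD, n = 5 each), a log2 difference of 0.29 ± 0.04 (SE) with a 95% interval of 0.20 to 0.38. The adjusted p was 0.00951 in the limma fit, and the exact permutation p was 0.00794, the smallest that 5 against 5 arrays can give. The interval of the fold, 1.15 to 1.30, ends below 1.5, a ratio that most of the brighter genes of its segment did not reach either.

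Bach1 (Mmu16, 87698954 to 87733346), the haem-sensitive repressor, was of middling brightness, at the 57.7 percentile. Controls 1 to 5 read 7.99, 7.85, 7.95, 7.96 and 8.01, and Dp5/Dp1 1 to 5 read 8.10, 8.19, 8.26, 8.27 and 8.28. The groups did not overlap, and Dp5/Dp1 1 lay nearest to the controls. The mean went from 7.95 ± 0.06 to 8.22 ± 0.08 (SD, n = 5 each), a log2 difference of 0.27 ± 0.04 (SE) with a 95% interval of 0.17 to 0.36 and an adjusted p of 0.0321 (limma). Its fold of 1.20 (1.13 to 1.29) also ended below 1.5. Of all genes, 0.762% had every Dp5/Dp1 array above every control and 0.321% every one below.

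Both calls were recomputed with the levels of other tissue in view. With the choroid plexus level as a covariate the log2 differences were 0.31 for Sod1 and 0.29 for Bach1, and with choroid plexus and habenula levels together they were 0.30 and 0.29, past the threshold in each case. With both covariates the 8 members in 2 copies lay between -0.04 (Hmox1) and 0.15 (Nqo1 and Nfe2l2), with Sod3 at 0.11, and with choroid plexus alone Cat was at 0.04 and Sod2 at -0.0083, none of them past the threshold. Without Dp5/Dp1 2 and 5 the sizes were 0.25 and 0.26, but on 3 against 5 arrays the adjusted p was 0.0548 for Sod1 and 0.237 for Bach1 (limma). Sod1 passed in all 10 fits that left out 1 array. Bach1 passed in 1 of these 10, that without Dp5/Dp1 1, and missed the threshold when any control or any of Dp5/Dp1 2 to 5 was left out, with differences between 0.24 and 0.30.

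Among genes of their own duplicated segment, Sod1 and Bach1 moved less than most. The Dp5Yah interval held 82 measured genes by position, of which 39 were brighter than the dimmest 40% of all genes. Ordered by log2 difference, Sod1 was 30th and Bach1 32nd of these 39. The median difference of the other 37 was 0.41, and 23 of them were called. Ifnar2 stood highest at 0.66 and the next gene, Il10rb, at 0.50, so every gene but Ifnar2 lay below the 0.58 of the copy ratio. This order is a description across genes that share the same arrays, and Sod1 and Bach1 lay within a SE of several neighbours in it.

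**Figure D2:**
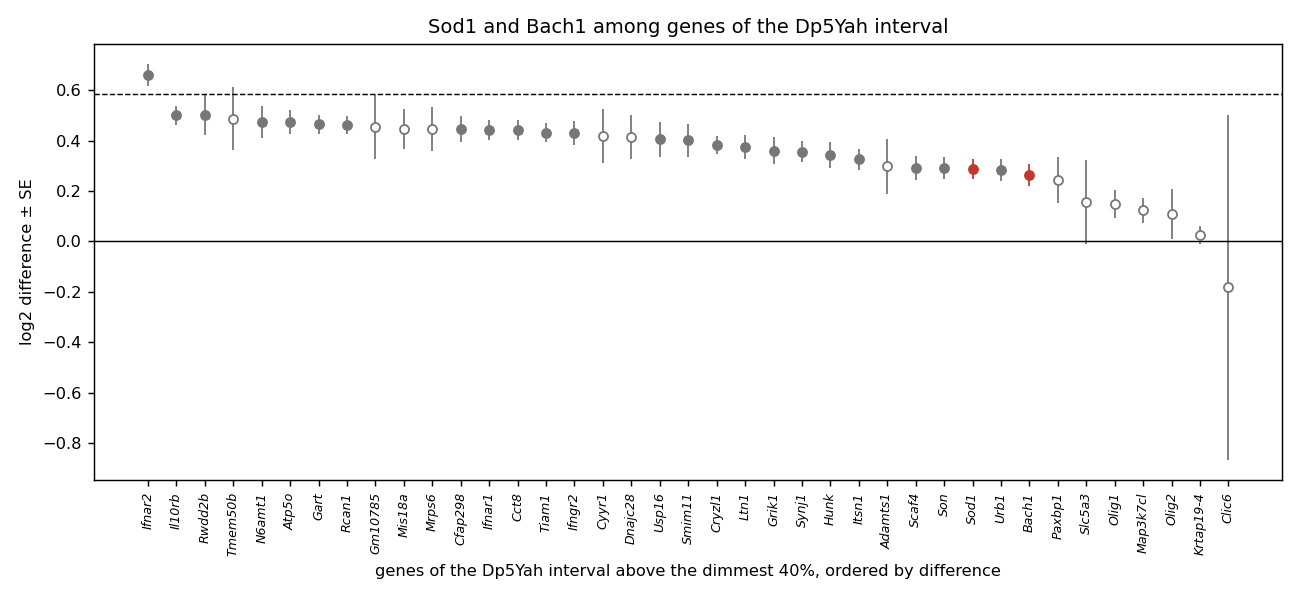
Log2 difference with its SE for the 39 brighter genes of the Dp5Yah interval, ordered by size, with filled points for genes past the limma threshold, Sod1 and Bach1 in red, and a dashed line at the copy ratio of 1.5. Sod1 (0.29) and Bach1 (0.27) stand in the lower part of the row, below the median of 0.41 of the others.

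Most of the nearest measured genes on the chromosome were higher too. Around Sod1, Tiam1, a RAC exchange factor, differed by 0.43 ± 0.04 (adjusted p = 0.000409), Scaf4 by 0.29 ± 0.05 (0.0358) and the kinase gene Hunk by 0.34 ± 0.05 (0.0175), while the dim Gm10789 differed by 0.09 ± 0.07 and was not called. Around Bach1, the chaperonin gene Cct8 differed by 0.44 ± 0.04 (0.000442) and the glutamate receptor gene Grik1 by 0.36 ± 0.05 (0.0153), and Map3k7cl (0.12 ± 0.05) and the dim 2810407A14Rik (-0.0062 ± 0.03) were not called. Leaving out 1 array at a time, Scaf4 passed in 2 of 10 fits, Hunk in 6 and Grik1 in 8, with adjusted p values of up to 0.127, 0.0691 and 0.0508, while Tiam1 and Cct8 passed in all 10. Scaf4 passed without control 3 or Dp5/Dp1 5, Hunk missed the threshold without control 1 or 3 or Dp5/Dp1 2 or 3, and Grik1 missed it without control 4 or Dp5/Dp1 3. The p values in this paragraph are adjusted over all genes in the limma fit.

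The genes whose levels followed Sod1 most closely over the 10 arrays were Hlcs (Pearson r 0.971), Ltn1 (0.969), Bach1 (0.948), Atp5o (0.946) and Cfap298 (0.938). For Bach1 they were Brwd1 (0.962), Ltn1 (0.957), Sod1 (0.948), Atp5o (0.946) and Mrps6 (0.926). Every one of these genes lies in the duplicated segments, Hlcs and Brwd1 in the Dp1Rhr segment. These correlations join arrays that fall into the groups of the design and are given as a description.

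The other superoxide dismutases did not follow Sod1. Mitochondrial Sod2 (chromosome 17, 13007839 to 13018119) read 11.79, 11.89, 11.76, 11.82 and 11.74 in the controls and 11.83, 11.79, 11.78, 11.79 and 11.80 in Dp5/Dp1. Its groups overlapped, at 11.80 ± 0.06 and 11.80 ± 0.02 (SD, n = 5 each), and the difference of -0.0021 ± 0.03 had a 95% interval of -0.07 to 0.07, which leaves out changes of the size seen for Sod1. Extracellular Sod3 (chromosome 5, 52363804 to 52369738) read 7.31, 7.40, 7.23, 7.51 and 7.29 in the controls and 7.35, 7.27, 7.64, 7.35 and 7.36 in Dp5/Dp1. Sod3 had a single high trisomic array and overlapping groups, and its difference was 0.04 ± 0.07 (-0.11 to 0.20). Without that array it was -0.02.

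The enzymes that remove peroxide also overlapped between groups. Cat (chromosome 2, 103453904 to 103485153), the peroxisomal catalase, read 10.83, 10.83, 10.71, 10.87 and 10.72 in the controls and 10.87, 10.84, 10.82, 10.69 and 10.86 in Dp5/Dp1, a difference of 0.02 ± 0.04 (-0.07 to 0.12). Gpx1 (chromosome 9, 108339080 to 108340342), the cytosolic glutathione peroxidase, read 10.28, 10.14, 10.22, 10.25 and 10.16 against 10.34, 10.31, 10.28, 10.12 and 10.35, a difference of 0.07 ± 0.05 (-0.03 to 0.17). In both genes Dp5/Dp1 4 was the lowest array of all. Gpx4 (chromosome 10, 80047166 to 80056439), the lipid hydroperoxide reductase, read 10.46, 10.35, 10.45, 10.42 and 10.42 against 10.53, 10.39, 10.56, 10.39 and 10.58, a difference of 0.07 ± 0.04 (-0.02 to 0.17). For Gpx4, Dp5/Dp1 1, 3 and 5 lay above every control and the other trisomic arrays lay among them. A dimmer second probe set of Gpx4 gave 0.08 ± 0.04.

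The level of Sod1 relative to these enzymes was therefore set out within each array. Sod1 minus Gpx1 was larger in Dp5/Dp1 by 0.22 ± 0.05 (SE), Sod1 minus Cat by 0.26 ± 0.05 and Sod1 minus Gpx4 by 0.22 ± 0.04, all on the log2 scale. Every trisomic array exceeded every control in each of these 3 gaps. Since the rise of Sod1 enters all of them, they are not separate evidence and carry no test.

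The targets of the BACH1 and NRF2 pair showed no change past the test. Hmox1 (chromosome 8, 75093618 to 75100593), the inducible haem oxygenase, read 7.03, 7.09, 7.30, 7.06 and 7.07 in the controls and 7.14, 7.01, 7.07, 7.01 and 7.23 in Dp5/Dp1. The groups overlapped and the highest array was a control. The difference was -0.02 ± 0.06 (adjusted p = 0.973, limma), and the fold lay between 0.905 and 1.08 (95% interval). Nqo1 (chromosome 8, 107388225 to 107403205), the quinone reductase, read 6.88, 6.20, 6.70, 6.78 and 6.49 against 6.64, 6.40, 6.81, 6.55 and 6.91. Nqo1 was the most dimly measured member, at the 38.0 percentile, and the lowest array of both groups was replicate 2. Its difference of 0.05 ± 0.13 allowed folds from 0.854 to 1.26. On the log2 scale this interval was -0.23 to 0.33, which holds a rise of the size of that of Bach1 (0.27) but not a fall as large.

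Nfe2l2 (chromosome 2, 75675513 to 75704663), the activator, read 9.42, 9.12, 9.47, 9.73 and 9.43 in the controls and 9.78, 9.24, 9.47, 9.25 and 9.80 in Dp5/Dp1. The trisomic arrays split into high, middle and low, and both groups covered much the same range. The difference was 0.07 ± 0.13 (-0.21 to 0.36). Nfe2l2 and Nqo1 were far more variable between mice than most genes. Their SD within groups was 0.248 and 0.239, at the 98.6 and 98.5 percentiles, against a median of 0.0698 over all genes, whereas Sod1 had 0.062 and Sod2 0.0431. With the choroid plexus and habenula levels as covariates the difference was 0.15 for both genes, still short of the threshold. With choroid plexus alone it was 0.13 for both. Nqo1 was highest on Dp5/Dp1 5, control 1, Dp5/Dp1 3 and control 4, all with high choroid plexus levels, while control 5, also high in these, read 6.49. Whether the spread followed the tissue taken was not tested.

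**Figure D3:**
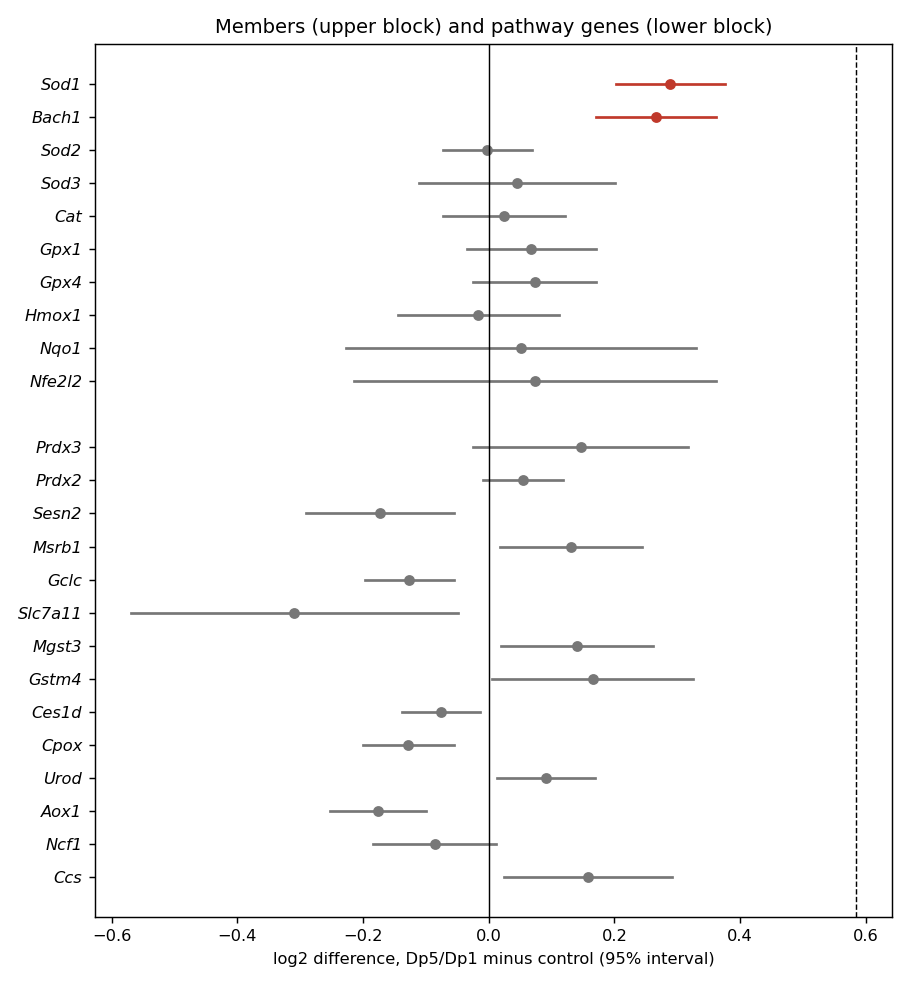
Log2 difference with its 95% interval for the 10 members (upper block) and for 14 other genes of the antioxidant lists (lower block), with red for genes past the limma threshold and a dashed line at the copy ratio of 1.5. Of these genes Sod1 and Bach1 are past the threshold, and their intervals end short of the dashed line.

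Beyond the members, 9 lists of the wider pathway held 136 genes, of which 127 were measured. Of these 127, the genes called were Sod1 and Bach1, and 0 were called lower. At an unadjusted p under 0.05, 10 lay higher and 7 lower, or 8 and 7 of the 125 genes outside the duplications, where 3.39% of all genes lay higher and 2.67% lower. Higher means were found for 71 of 127 genes, where 51.5% of all genes had the higher mean in Dp5/Dp1, and the median difference was 0.0083 against 0.0019 over all genes. FCROS called 17 of the 127, 10 higher and 7 lower, where it called 5.06% of all genes.

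**Figure D4:**
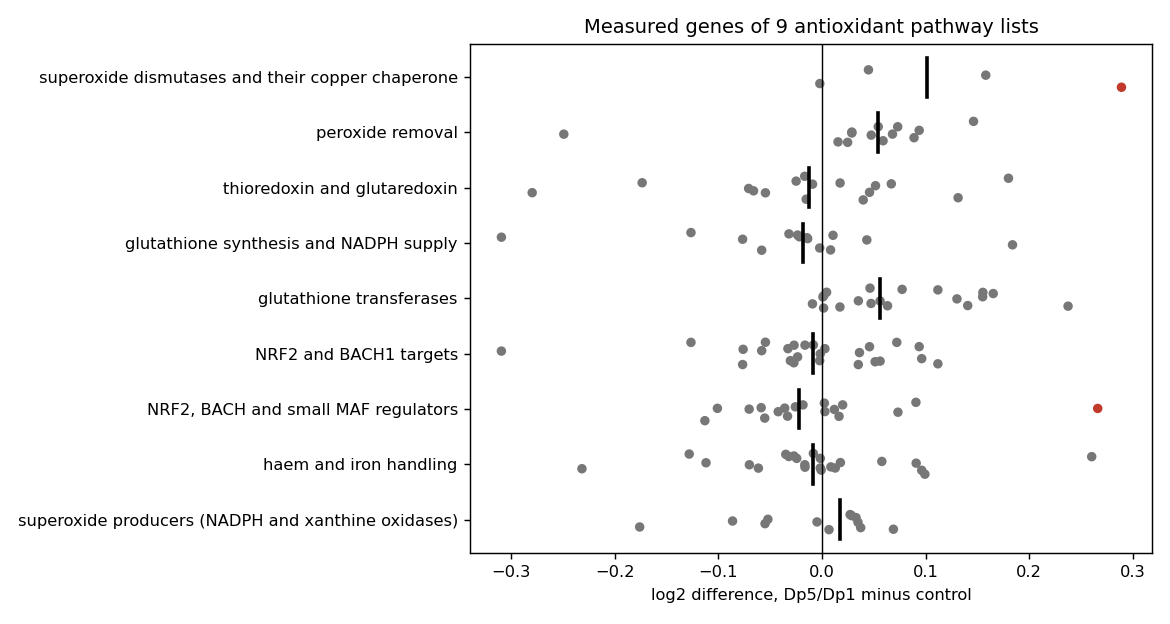
Log2 difference of each measured gene in the 9 pathway lists (points, with red past the limma threshold) and the median of each list (black bar). The red points are Sod1 and Bach1, and list medians lie between -0.02 and 0.10.

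Among the 4 genes of the dismutase list, 3 had the higher mean and the median difference was 0.10. The member of this list outside the 10, Ccs, delivers copper to SOD1 and is named after its values were seen. Ccs differed by 0.16 ± 0.06 (SE), from 7.30 ± 0.08 to 7.46 ± 0.13 (SD, n = 5 each), with an unadjusted p of 0.024 and an adjusted p of 0.807 in limma.

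Of 13 measured genes of peroxide removal, 12 had the higher mean and 0 passed, even without adjustment, with a median of 0.05. The lowest p values there belonged to Prdx3, the mitochondrial peroxiredoxin (0.15 ± 0.08), and to Prdx2, an abundant neuronal one (0.05 ± 0.03), both with an adjusted p of 0.832 (limma). Of 19 glutathione transferases, which conjugate glutathione to reactive compounds, 18 had the higher mean, with a median of 0.06 and 0 called. Mgst3, a membrane-bound form, differed by 0.14 ± 0.06 and Gstm4 by 0.17 ± 0.07. Transferases of one class are close in sequence, and signal may be shared between their probes. Gpx2, Gpx5, Gpx6 and Gpx7 among the peroxide genes, and Gsta3, Gstt2 and Mgst2 among the transferases, lay in the dimmest 40% of all genes. Each of them was counted as higher. All genes of both lists were read on the same 10 arrays, so their directions are not independent.

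Of 14 genes of glutathione synthesis and NADPH supply, 10 had the lower mean and the median was -0.02. Gclc, the catalytic subunit of the enzyme that limits glutathione synthesis, read 10.31, 10.25, 10.32, 10.28 and 10.26 in the controls and 10.10, 10.23, 10.11, 10.19 and 10.16 in Dp5/Dp1. Every trisomic array was below every control, the difference was -0.13 ± 0.03 (SE), and the adjusted p was 0.465 (limma). Slc7a11, which imports cystine for glutathione, went from 10.60 ± 0.26 to 10.29 ± 0.18 (SD, n = 5 each), a difference of -0.31 ± 0.12 with overlapping groups and an adjusted p of 0.807 (limma). Its highest arrays were controls 1 and 4, which had the highest choroid plexus levels. With the choroid plexus level as a covariate its difference was -0.24, and with choroid plexus and habenula levels together -0.31. Neither Gclc nor Slc7a11 was called with limma, and FCROS called both lower.

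The list of 25 measured NRF2 and BACH1 targets, which includes Hmox1, Nqo1, Gclc and Slc7a11, had 15 lower and 10 higher means, a median of -0.0083 and 0 called. Without adjustment 3 lay lower and 0 higher: Gclc, Slc7a11 and the dim carboxylesterase gene Ces1d (-0.08 ± 0.03). Of all genes, 2.67% lay lower and 3.39% higher at an unadjusted p under 0.05. Gclm, the partner subunit of Gclc, whose promoter site is printed above, differed by -0.06 ± 0.04.

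The remaining lists were divided. Of 16 thioredoxin and glutaredoxin genes, 7 had the higher mean and 0 were called; Sesn2, a stress-inducible sestrin, differed by -0.17 ± 0.05 and Msrb1, a methionine sulfoxide reductase, by 0.13 ± 0.05 (adjusted p = 0.70 and 0.807, limma). Of 18 NRF2, BACH and small MAF regulators, 1 was called, Bach1, and 10 had the lower mean. Of 23 genes of haem and iron handling, 15 had the lower mean. Cpox, an enzyme of haem synthesis on Mmu16 outside the duplications, read 9.05, 9.02, 9.04, 9.04 and 9.08 in the controls and 8.84, 8.96, 8.91, 8.88 and 8.99 in Dp5/Dp1, each below every control. Its difference was -0.13 ± 0.03 with an adjusted p of 0.472 (limma), and Urod, a neighbouring step of the same pathway, differed by 0.09 ± 0.04.

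Of 12 genes that can produce superoxide or peroxide, 7 had the higher mean and 0 were called. Aox1, an aldehyde oxidase gene, was dim, at the 37.0 percentile and so within the dimmest 40% of all genes. Aox1 was at 6.65 ± 0.05 in the controls and 6.48 ± 0.05 in Dp5/Dp1 (SD, n = 5 each). Every trisomic array lay below every control, with a difference of -0.18 ± 0.04. Aox1 had the lowest p of the genes outside the duplications in these lists, 0.000324 before and 0.132 after adjustment in limma. Ncf1, a subunit of the phagocyte NADPH oxidase, differed by -0.09 ± 0.04. Of the 127 genes, Gclc, Cpox and Aox1 were the 3 with every Dp5/Dp1 array lower, as were 0.321% of all genes.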

How the data were processed

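Total RNA of 10 hippocampi was hybridised to 10 arrays, 5 per group and 1 per mouse. The deposited values were log2 intensities per probe set that the authors made with RMA (background correction, quantile normalisation and summary), as the submitters' processing notes name RMA and limma and the mm10 build. Of 35556 probe sets, 21789 name a single symbol, 21698 of them matched RefSeq, and the brightest per gene gave 19938 genes. Array medians were 6.73 to 6.80, the lowest correlation between arrays was 0.996, and the number of arrays limits the precision. Labels give 200 ng of input RNA, and the methods of the study give a smaller amount.

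Groups were compared by the moderated linear model of limma 3.58.1 (R 4.3.3), on all 10 arrays and two-sided, with Benjamini-Hochberg adjustment over all genes and a threshold of 0.05; the study used FCROS, which was rewritten here as an alternative. P values set the difference between groups against the spread between mice of a group, which limma moderates over all genes. On simulated data for this comparison over 19938 genes, limma recovered 39 of 50 genes changed by 0.3 and 48 of 50 changed by 0.6 on the log2 scale. The simulation changed 50 genes at each of -0.6, 0.3, 0.6 and 1.0, with independent noise. In the real data 41 genes were called, so recovery there may be lower. Intervals and genes were placed with RefSeq coordinates of GRCm38.p6, the build called mm10. Alternatives covered dim genes, normalisation, probe sets, variance, array weights, covariates, the replicate block and left-out arrays.

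The members, lists and tests were chosen with earlier results of these data known. Named genes were all members, and in each list the called genes or, with none called, the 2 non-members with the lowest p, with neighbours of Sod1 and Bach1 and their 5 most similar genes. Of the listed genes, 9 had no single-symbol probe set and were not analysed here.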

Additional observations from a re-analysis of the deposited data

Results flagged for a closer look

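In 48 groups of 5 arrays, 10 members and 14 other named genes in both genotypes, the highest or lowest array was screened for distance from the rest by Dixon's ratio (critical value 0.71), and chance flags about 1 group in 20. Among the members, 4 arrays stood apart: Sod2 on Dp5/Dp1 1 at 11.83 (ratio 0.734), Sod3 on Dp5/Dp1 3 at 7.64 (0.765), Cat on Dp5/Dp1 4 at 10.69 (0.717) and Hmox1 on control 3 at 7.30 (0.781). Outside the members, Prdx3 on control 2 stood low at 9.85 (0.711) and Prdx2 on control 1 stood high at 12.19 (0.772). None of these genes was called by limma.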

How the results depend on the processing

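Replicate numbers did not pair the arrays (correlations of same-numbered deviations from -0.353 to 0.292). With the replicate block, 0 members and 0 pathway genes were called, Sod1 at 0.29 with an adjusted p of 0.0996 and Bach1 at 0.27 with 0.135 (limma). Without Dp5/Dp1 replicates 2 and 5, 0 members and 0 pathway genes were called, with Sod1 at 0.25, Bach1 at 0.26 and Sod2 turned to 0.0018. FCROS called 17 pathway genes in place of 2. Leaving out 1 array at a time gave 1 to 2 members and 1 to 2 pathway genes called, with Bach1 between 0.24 and 0.30 and Sod1 between 0.26 and 0.31. In those fits the direction changed with an array for Sod2 (-0.0169 to 0.0198), Sod3 (-0.0177 to 0.0862), Hmox1 (-0.0505 to 0.0322), Nqo1 (-0.0512 to 0.118), Nfe2l2 (-0.00595 to 0.148) and 2810407A14Rik (-0.0201 to 0.00398), and the causes were not tested. Of the neighbours, Scaf4, Hunk and Grik1 missed the threshold with the replicate block and without Dp5/Dp1 replicates 2 and 5, and Scaf4 also with both covariates. Nqo1, Aox1, Ces1d, Gm10789 and 2810407A14Rik left the comparison once the dimmest 40% of genes were dropped. Sod1 and Bach1 kept their direction and their call under the remaining alternatives, which were the dim filter, renewed quantile normalisation, centring, the mean of probe sets, a variance trend, array weights, separate probe sets and both covariate fits. For Bach1 the adjusted p (limma) was near the threshold in several of these. It was 0.0485 with renewed quantile normalisation, 0.0457 with the variance trend, 0.0433 with both covariates and 0.042 with centring. In the others it lay between 0.00922 and 0.0315.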
